A study of Mus musculus with 66 samples.

Results

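Oog1, Oog2, Oog3, Oog4 and C87977 are mouse oogenesin genes, members of the PRAME-like family that are read in oocytes, and they make up 5 of the 24062 genes in the deposited expression table. They were chosen by their gene names and because Oog3 and C87977 rose most in late culture, so the levels of all 5 genes in culture are described here without a test. Tests were run on other libraries, the oocytes taken from ovaries and the oocytes of day 21 (D21). Earlier results of these data were known when the genes were chosen, so these tests may not be independent of the choice.

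RNA-seq was done on mouse female germ cells and oocytes in 66 libraries of 24 groups, with 3 libraries in 18 groups and 2 in the 6 groups of D21. Ovarian cells carried a stella-ECFP reporter on a C57BL/6 x B6D2F1 background and were collected at embryonic days E14.5, E16.5 and E18.5, at postnatal days P1 and P3, and at P4 and P6, where small oocytes were separated from large ones. Cultured cells of C57BL/6 X 129/SvJ origin came from reconstituted ovaries, aggregates of 5000 Blimp1-mVenus-positive PGCLCs (primordial germ cell-like cells, derived from embryonic stem cells) with 75000 somatic cells from E12.5 gonads that had been frozen and thawed, and received 10 uM of the Rock inhibitor Y-27632 in the first 2 days. They were collected on 9 days of culture from D5 to D20, labelled germ cells up to D11 and oocytes from D13. The D21 oocytes came from wild-type (WT) or Foxo3dNES transgenic (Tg) stem cells, each in normoxia, in hypoxia with 5% O2, or with no oxygen condition named in the label. The promoter that drives the transgene, the number of transgenic clones and the number of animals or cells behind a library are not given in the sources used here, nor is the size that separates small from large oocytes.

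PRAME-like proteins are built from leucine-rich repeats, and the family is named after PRAME, an antigen first known from melanoma. Some members serve as substrate receptors of cullin ubiquitin ligases. The family has expanded into a large cluster of similar copies in the mouse genome, and the oogenesins are the branch known for RNA in growing oocytes and in early embryos that still hold maternal RNA.

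In the genome build GRCm38, which is the mm10 build of the deposited table, 4 of the genes lay on chromosome 4. Oog3 (chr4:144157557-144162663, minus strand), Oog2 (chr4:144190719-144196934, plus strand) and C87977 (chr4:144206775-144213318, minus strand, Pramel29 in RefSeq) were neighbours. Oog3 and Oog2 were 28.1 kb apart, and Oog2 and C87977 9.83 kb. Oog4 (chr4:143437164-143450324, minus strand) lay elsewhere on the same chromosome, next to Pramef8 and Gm13043. Oog1 (chr12:87602688-87608850, plus strand) lay on chromosome 12, between Gm8300 and Gm4027. The principal transcripts had 4 or 5 exons and coding sequences of 1290 bases (Oog4) to 1500 bases (Oog3).

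The 250 bases before the RefSeq transcription start of each gene are shown because they were alike between genes on different chromosomes. They are taken from RefSeq (GRCm38.p6), which held all 5 genes, and are written 5′ to 3′ on the strand of the gene. They span chr12:87602415-87602664 (Oog1), chr4:144190467-144190716 (Oog2), chr4:144162652-144162901 (Oog3), chr4:143450325-143450574 (Oog4) and chr4:144213018-144213267 (C87977). The gene spans given above are from GENCODE, and its starts differ from those of RefSeq for Oog1, Oog2, Oog3 and C87977. The stretch of C87977 lies wholly inside its GENCODE span. Capitals mark the 3 words of 9 bases that all 5 stretches held.
Oog1: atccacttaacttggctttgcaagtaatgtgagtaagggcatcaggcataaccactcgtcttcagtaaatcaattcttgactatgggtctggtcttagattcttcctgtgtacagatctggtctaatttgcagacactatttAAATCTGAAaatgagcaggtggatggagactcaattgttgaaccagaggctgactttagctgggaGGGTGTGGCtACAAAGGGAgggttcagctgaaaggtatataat
Oog2: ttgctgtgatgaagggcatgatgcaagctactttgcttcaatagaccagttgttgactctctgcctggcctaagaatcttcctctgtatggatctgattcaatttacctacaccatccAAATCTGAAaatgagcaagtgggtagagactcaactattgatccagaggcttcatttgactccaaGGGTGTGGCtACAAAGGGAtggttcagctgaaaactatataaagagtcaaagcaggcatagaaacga
Oog3: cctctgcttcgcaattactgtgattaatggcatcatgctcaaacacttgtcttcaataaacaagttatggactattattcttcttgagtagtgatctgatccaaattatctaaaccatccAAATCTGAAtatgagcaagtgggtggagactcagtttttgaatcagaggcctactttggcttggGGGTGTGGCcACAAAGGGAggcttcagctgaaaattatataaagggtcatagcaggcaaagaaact
Oog4: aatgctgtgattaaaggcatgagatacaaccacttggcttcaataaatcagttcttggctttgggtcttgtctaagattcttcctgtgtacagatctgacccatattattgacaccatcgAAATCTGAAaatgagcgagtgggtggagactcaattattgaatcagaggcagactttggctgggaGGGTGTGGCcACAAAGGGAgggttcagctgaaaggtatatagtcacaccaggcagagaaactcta
C87977: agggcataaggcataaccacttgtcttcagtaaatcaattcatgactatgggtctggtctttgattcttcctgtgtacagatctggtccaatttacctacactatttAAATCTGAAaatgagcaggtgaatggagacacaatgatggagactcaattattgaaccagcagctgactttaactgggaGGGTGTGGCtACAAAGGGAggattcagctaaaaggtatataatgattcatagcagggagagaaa

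Oog1 and C87977, on different chromosomes, were identical at 96.2% of aligned coding bases and at 93.5% of aligned upstream bases. Every other pair was identical at 73.8% to 80.8% of coding bases and at 76.1% to 83.8% of upstream bases. Among the upstream stretches of other PRAME-like genes, that of Gm13084 was 95.5% identical to Oog2 and that of Gm13103 84.5% identical to Oog3. That of Pramel1 was at most 43.2% identical to any of the 5 genes.

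The words AAATCTGAA, GGGTGTGGC and ACAAAGGGA were found in the data, chosen because all 5 stretches held them. Their presence in these genes and in close copies is therefore no test. They were searched on both strands of the 250 bases before 32851 RefSeq transcription starts. AAATCTGAA stood in 0.374% of all these stretches, ACAAAGGGA in 0.420% and GGGTGTGGC in 1.21%. In all 5 genes the last pair stood 1 base apart, as GGGTGTGGCNACAAAGGGA. It began at base -43 in Oog1 and at bases -67 to -64 in the others, counted back from the RefSeq start. These positions depend on the annotation, since the GENCODE start of Oog1 lies further downstream. That pair of words stood in 8 of the 32851 stretches (0.0244%), those of the 5 genes and of Gm2042, Gm13023 and Gm13084. The 3 further genes were also lower in P6 small than in P6 large oocytes, with means of 0.207 and 17.4 RPM for Gm2042, 0.406 and 219 RPM for Gm13023, and 23.6 and 314 RPM for Gm13084. RPM are reads per 1e+06 reads of a library. The PRAME-like C87499 and Gm13103 lacked the pair and were lower in P6 small oocytes as well. Their means in P6 small and P6 large were 3.22 and 68.2 RPM for C87499 and 5.71 and 24.5 RPM for Gm13103. A link between the words and the levels was not tested. TAATTG, a homeodomain core of the kind bound by NOBOX and LHX8, was present in Oog3 at base -239, in Oog4 at base -99 and in C87977 at base -98, against 7.17% of all stretches. TAATTA was present in none of the 5 stretches (4.84% of all), and the E-box CANNTG was present in all 5 (66.2% of all). These matches describe letters and not bound sites.

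Because the copies are so alike, reads may be split or shared between them, and whether reads with several matches were counted is not given in the sources used here. Of the 50-base words in the annotated exons of Oog1, 89.0% were also found in another gene, mainly Gm2042 and Gm10436. The share was 33.4% for Oog2 (mainly Gm13084), 24% for C87977 (Gm2042, Gm13023, Oog1 and Gm10436), 19.7% for Oog3 (mainly Gm4350, not analysed here) and 0.707% for Oog4. In 6 of the 11 libraries with 1 to 19 reads of Oog1, Gm2042 had exactly the same number of reads, and in the other 5 it had more. It also had more reads than Oog1 in all 29 libraries with at least 20 reads of Oog1. The counts of Oog1 are therefore uncertain, those of Oog2, Oog3 and C87977 rest in part on shared sequence, and those of Oog4 are nearly free of it.

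Libraries held 4843643 to 23188562 reads, and 3 reads corresponded to 0.129 to 0.619 RPM. The lowest depths, 4843643 to 8719895 reads, were those of the 4 D21 libraries without a named oxygen condition. The oocyte label fitted its markers: Ddx4, Dazl, Dppa3, Figla and Zp3 were read in every group, and Zp3, a zona pellucida protein, averaged 6985 RPM in P6 large and 1304 RPM in P6 small oocytes. Markers of other cells were highest in different groups. The 8 markers of stroma and theca were highest from D9 to D11, where they summed to 330 to 1081 RPM on average. The 11 granulosa markers summed to 319 to 382 RPM on average there. Their highest mean, 579 RPM, was that of Tg D21 oocytes with no oxygen label. The other D21 groups outside hypoxia averaged 181 to 258 RPM. The 6 endothelial markers were highest at D5, at 88.0 RPM on average. RPM are shares of a library and are not divided by length, so fewer cells of a type and less RNA per cell cannot be told apart. The targeted gene followed its labels at D21: Foxo3 was at 322 to 324 RPM in Tg normoxia and 364 to 367 RPM in Tg hypoxia, and at 44.8 to 88.5 RPM in WT normoxia and 123 to 128 RPM in WT hypoxia.

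Before birth the 5 genes were close to silent. At E14.5 a single read of C87977 in 1 library was the only read of any of them. At E16.5 and E18.5 no gene exceeded 0.179 RPM in any library, except Oog2, which had 0, 0.605 and 0.358 RPM at E18.5. The step from E14.5 to E18.5 gave 0 of 5 genes past the threshold of an adjusted p of 0.05, while 70% of all 15401 genes tested passed it. Oog1 and Oog3 had no read at either stage, so this step could not call them. All tests are limma-trend on log2(RPM + 1), two-sided, with Benjamini-Hochberg adjustment over all genes of a comparison. On this scale the change of low genes is understated.

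Oog2 and Oog3 were the first to exceed 1 RPM in the ovary. Oog2 stood at 0.185, 2.39 and 1.43 RPM in the libraries of P1 and at 0.275, 3.49 and 5.53 RPM in those of P3. Oog3 stood at 0, 1.32 and 0.801 RPM at P1 and at 0, 1.49 and 4.76 RPM at P3. Oog1, Oog4 and C87977 stayed at or below 0.77 RPM in all 6 of these libraries. For both early genes the first library of each group was the lowest, and the groups overlapped. None of the 5 genes passed from E18.5 to P1 (44.3% of all genes passed) or from P1 to P3 (14.6%), with 0 at an unadjusted p under 0.05 in either step. edgeR called none of them in these 3 early steps. DESeq2 called 1 in each: Oog2 from E14.5 to E18.5, Oog3 from E18.5 to P1 and Oog1 from P1 to P3.

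In small oocytes Oog2 and Oog3 had the highest means of the 5 genes, and Oog3 differed widely between libraries. In the third P4 small and the first and second P6 small libraries Oog3 did not exceed Oog4. Oog3 stood at 10.0, 3.21 and 0 RPM in the 3 libraries of P4 small oocytes and at 0.056, 0.131 and 16.4 RPM in those of P6 small oocytes. The 16.4 RPM came from 275 reads in the third library, beside 1 and 2 reads in the others. Oog2 stood at 8.43, 6.60 and 2.10 RPM at P4 and at 2.52, 1.83 and 7.23 RPM at P6, so it was detected in every small-oocyte library. Oog4 did not exceed 0.860 RPM in any of these 6 libraries, Oog1 0.584 RPM, and C87977 1.61 RPM. Relative to its mean, Oog2 varied least of the 5 genes, with a coefficient of variation of 57% at P4 and 76.1% at P6, and Oog3 varied most, with 116% and 170%.

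Several genes were high in the same libraries. For Oog2 and Oog3 the highest library of the group was the same in all 5 groups compared (P1, P3, P4 small, P4 large and P6 small), and the lowest library was the same in 4 of 5. Oog4 and C87977 were also highest in the first P4 small, the second P4 large and the third P6 small library, as Oog2 and Oog3 were, and the third P4 large library was the lowest for all 5 genes. This was seen in the data and was not tested. In the third P6 small library Oog3 was 21.2-fold over Oog4, against 1.39- to 1.83-fold in the P6 large libraries. In each P4 large library this ratio was lower than in any P6 large library. The source of the Oog3 reads in the third P6 small library was not tested.

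None of the 5 genes passed from P3 to P4 small oocytes, where 0% of all genes passed, with 0 of the 5 genes at an unadjusted p under 0.05 and none by edgeR or DESeq2. Over all genes that step had 640 at an unadjusted p under 0.05, 0 called by edgeR and 5 by DESeq2. From P4 small to P6 small oocytes 0 of 5 passed, beside 0.13% of all genes. edgeR and DESeq2 called none of the 5 there, and DESeq2 gave 1 at an unadjusted p under 0.05.

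**Figure D1:**
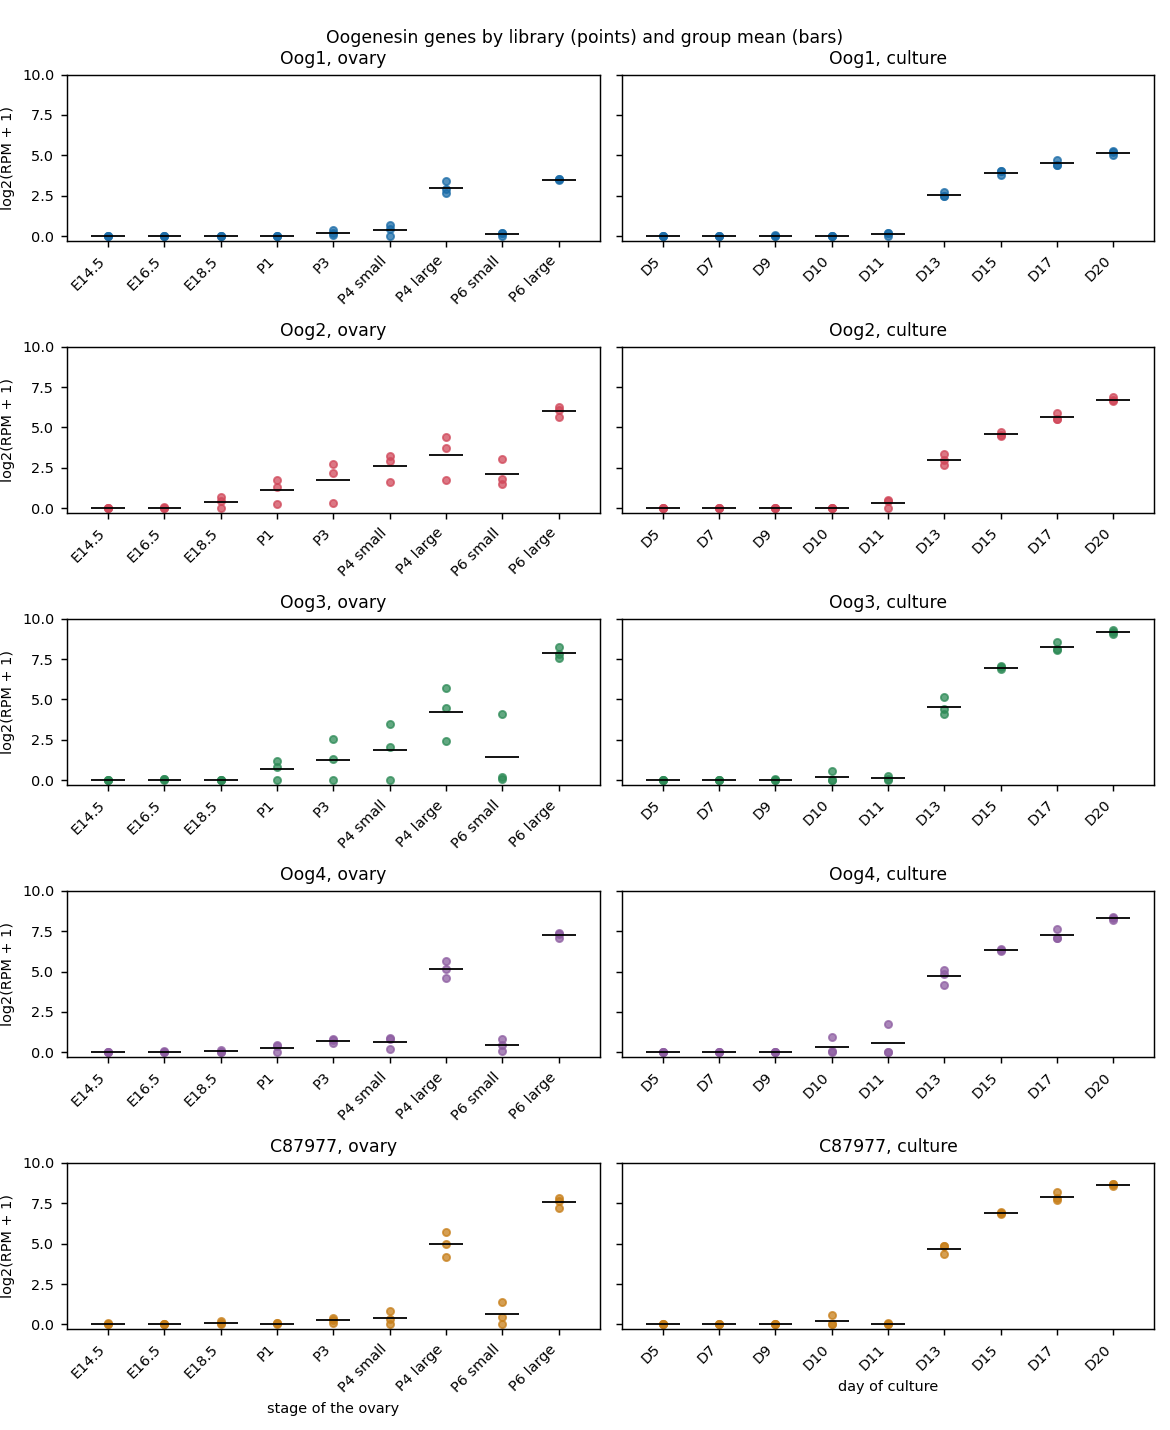
Level of each gene as log2(RPM + 1) in ovarian groups (left) and in culture (right), with points for the 3 libraries and bars for their mean. Oog1 and Oog4 stayed under 0.896 and C87977 under 1.39 in the small-oocyte libraries, while Oog2 ran from 1.5 to 3.24 and Oog3 from 0 to 4.12 there, and all 5 stood far higher at D20 than at D11.

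Large oocytes had far higher levels of these genes. Among ovarian groups, Oog1, Oog4 and C87977 reached the mean of 1 RPM needed for the fit only in large oocytes. Their differences and p-values here are therefore a description. Oog4 stood at 34.4, 50.2 and 23.1 RPM in P4 large oocytes and at 158, 134 and 165 RPM in P6 large oocytes, above every small-oocyte library. Its log2 difference between large and small oocytes was 4.51 ± 0.23 (SE) at P4 (adjusted p = 1e-14) and 6.80 ± 0.23 at P6 (adjusted p = 1.7e-18). C87977 stood at 30.6, 51.5 and 16.9 RPM in P4 large and at 202, 149 and 222 RPM in P6 large oocytes. Its difference was 4.55 ± 0.30 at P4 (adjusted p = 1.4e-12) and 6.94 ± 0.30 at P6 (adjusted p = 2.2e-16), again with no overlap. The direction was the same for the near copy Oog1, at much lower levels. Oog1 stood at 6.45, 9.73 and 5.47 RPM in P4 large and at 10.2, 10.5 and 10.4 RPM in P6 large oocytes, with differences of 2.64 ± 0.16 (adjusted p = 3.7e-13) and 3.39 ± 0.16 (adjusted p = 1.4e-15).

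For Oog3 and Oog2 the libraries of large and small oocytes overlapped at P4 and did not overlap at P6. Oog3 stood at 21.6, 50.4 and 4.49 RPM in P4 large oocytes, within the reach of the 10.0 RPM of a small-oocyte library, and at 228, 187 and 303 RPM in P6 large oocytes. Its difference was 2.37 ± 0.85 at P4 (adjusted p = 0.016) and 6.42 ± 0.85 at P6 (adjusted p = 2.2e-07). The P4 call of Oog3 was lost without the second P4 large library (1.63, adjusted p = 0.12), without the third P4 small library (1.44, adjusted p = 0.15) and by DESeq2 (adjusted p = 0.20). Oog2 stood at 12.0, 19.9 and 2.30 RPM in P4 large and at 65.4, 48.1 and 77.4 RPM in P6 large oocytes. Its difference at P4, 0.67 ± 0.57, did not pass (adjusted p = 0.30) and did so without the third P4 large library (1.44, adjusted p = 0.022). At P6 it was 3.87 ± 0.57 (adjusted p = 1e-06).

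Thus 5 of 5 genes were higher in large oocytes at P6, where 22.1% of all genes were called higher, and 4 of 5 at P4, where 20.5% were. Against P3 oocytes, 5 of 5 were higher in P4 large oocytes, where 20.6% of all genes were. Oog2 in that comparison (1.53 ± 0.57, adjusted p = 0.019) did not pass without the first P3 library (0.83, adjusted p = 0.20), without the first P4 large library (1.31, adjusted p = 0.075) or without the second (0.97, adjusted p = 0.16). DESeq2 did not call Oog3 there (adjusted p = 0.073). Oog1, Oog4 and C87977 entered the fit only through large oocytes, since a gene needed a mean of 1 RPM in at least 1 group, so these counts are a description. Over all genes tested the median change was -0.41 at P6 and -0.34 at P4. With RPM rescaled by median-of-ratios size factors it was -0.0026 and -0.014, and the share of genes called higher was 36.2% and 33.2%. The 5 genes kept their direction and the same calls.

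Markers of other cells moved with oocyte size in both directions. The 11 granulosa markers summed to 66.1 to 78.8 RPM in P6 large and to 11.6 to 19 RPM in P6 small oocytes. By mean, Foxl2 and Amhr2 went the other way. Foxl2 averaged 0.236 RPM in P6 large and 0.578 RPM in P6 small oocytes, and Amhr2 0.149 and 2.81 RPM. The markers that made up the higher sum in large oocytes are not given singly here. None of the 11 was at 0 in every P6 large library. The 8 markers of stroma and theca summed to 0.515 to 0.749 RPM in P6 large and to 6.51 to 27.5 RPM in P6 small oocytes, with Lum and Cyp17a1 at 0 in every P6 large library. The 6 endothelial markers summed to 27.9 to 35.6 RPM in P6 large and to 10.3 to 12.1 RPM in P6 small oocytes, with Cdh5 and Emcn at 0 in every P6 large library. Their part in the results was not tested.

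**Figure D2:**
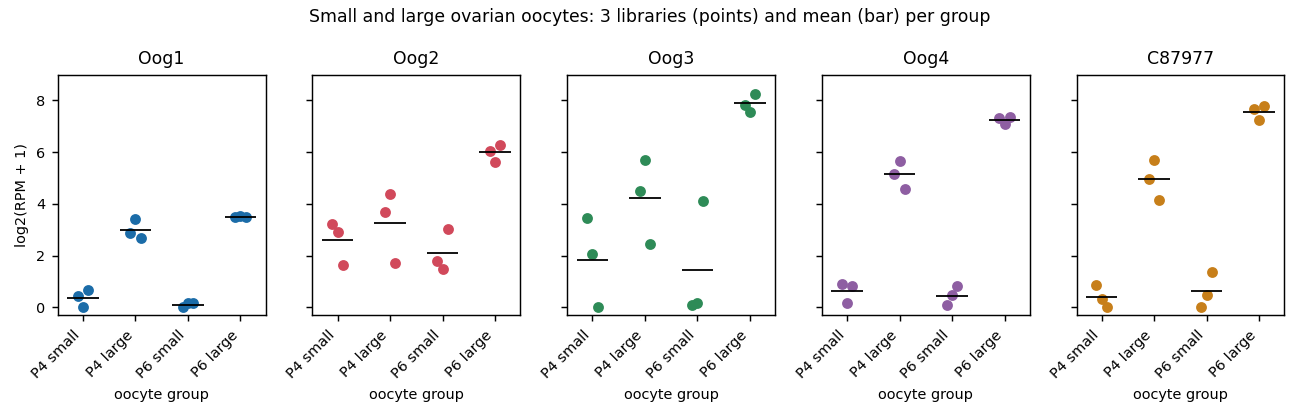
Level of each gene as log2(RPM + 1) in small and large oocytes of P4 and P6, with points for 3 libraries and bars for their mean. All P6 large libraries lie above all P6 small libraries for each gene, whereas P4 libraries of Oog2 and Oog3 overlap.

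From P4 to P6 the levels in large oocytes rose further. Oog3 was higher by 3.67 ± 0.85 on the log2 scale (adjusted p = 0.0036), Oog2 by 2.72 ± 0.57 (adjusted p = 0.0015), C87977 by 2.61 ± 0.30 (adjusted p = 3.2e-06) and Oog4 by 2.12 ± 0.23 (adjusted p = 1.3e-06). Oog1 was higher by 0.50 ± 0.16 (adjusted p = 0.033). No gene's libraries overlapped between these groups, and the share of all genes without overlap is not given here. In this comparison 4.6% of all genes were called higher (10.5% after rescaling, with 5 of 5 genes called under either scaling). Leaving out any single library other than the second P4 large library ended the call of Oog1 (0.34 to 0.51, adjusted p = 0.066 to 0.22). DESeq2 called only Oog4 of the 5 (adjusted p = 0.013), and limma with a pseudocount of 0.1 left Oog1 (adjusted p = 0.51) and Oog3 (adjusted p = 0.092) without a call. The difference between large and small oocytes was itself greater at P6 than at P4 for all 5 genes, from 0.75 ± 0.23 for Oog1 (adjusted p = 0.043) to 4.06 ± 1.20 for Oog3 (adjusted p = 0.037), where 2.64% of all genes were called in this direction. It was 2.29 ± 0.32 for Oog4 (adjusted p = 0.00031) and 2.39 ± 0.43 for C87977 (adjusted p = 0.0016). Both, like Oog1, entered the fit only through large oocytes, so these values too are a description. With edgeR only Oog4 passed, and with DESeq2 none.

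The P4 large mean of Oog1 was 69.8% of its P6 large mean, against 23.5% for Oog4, 17.9% for Oog2, 17.3% for C87977 and 10.6% for Oog3. The log2 ratio of Oog1 to each other gene was lower at P6 than at P4 in all libraries, with changes of -1.62 against Oog4, -2.11 against C87977, -2.22 against Oog2 and -3.17 against Oog3. In each of these 4 comparisons the exact permutation test, two-sided, gave p = 0.1, the smallest that 3 against 3 libraries allow, and the value adjusted over the 4 is the same. Since 85.8% of the 50-base words of Oog1 are shared with Gm2042, this holds for the reads assigned to Oog1 and not surely for the gene. Gm2042 itself averaged 12.1 RPM in P4 large and 17.4 RPM in P6 large oocytes.

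The mixture of the 5 genes differed between the groups as well, and this was not tested. In the P6 large libraries Oog3 made up 36.2% ± 2.4 (SD, n = 3) of the reads of the 5 genes, C87977 29.0% ± 1.2, Oog4 23.5% ± 2.1, Oog2 9.63% ± 0.47 and Oog1 1.61% ± 0.33. In the 2 libraries of P4 small oocytes with at least 100 such reads, Oog2 made up 41.2% and 64.6% and Oog3 49.0% and 31.4%. Oog4 and C87977 reached at most 4.20% and 3.92% in these libraries. In P4 large oocytes Oog4 made up 34.8% ± 8.5 and C87977 30.0% ± 2.1. Per kilobase of the principal transcript, P4 large oocytes held 18.1 RPM of Oog4, 17.5 of C87977, 13.7 of Oog3, 5.95 of Oog2 and 4.01 of Oog1. In P6 large oocytes they held 128 RPM per kilobase of Oog3, 101 of C87977, 77.1 of Oog4, 33.2 of Oog2 and 5.74 of Oog1.

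In culture the genes were absent up to D9 apart from single reads of Oog1 and Oog3 in 1 library. At D10 and D11 the highest value was 2.38 RPM, of Oog4 in 1 library of D11, whose other libraries held none. All 5 genes were present in every library of D13. From D11 to D13 the markers of other cells were lower where the 5 genes appeared. The stroma and theca sum was 190.1 to 1846 RPM in the libraries of D11 and 3.32 to 27.2 RPM in those of D13. The granulosa sum was 250.3 to 454 RPM and 26.7 to 39.2 RPM, and the blood and immune sum was 31.1 to 414 RPM and 1.85 to 6.28 RPM. The 5 germ cell and oocyte markers summed to 1892 to 3210 RPM at D11 and to 12296 to 12939 RPM at D13, and the part of these differences in the appearance of the 5 genes was not tested. Oog3 then stood at 16.0, 34.9 and 20.2 RPM, at 127, 116 and 133 RPM at D15, at 368, 273 and 261 RPM at D17, and at 583, 522 and 642 RPM at D20. C87977 went from 19.8, 27.6 and 28.2 RPM at D13 to 380, 405 and 406 RPM at D20. Oog4 went from 16.9, 27.9 and 32.8 RPM to 312, 289 and 336 RPM, Oog2 from 5.38, 9.05 and 6.80 RPM to 97.5, 103 and 115 RPM, and Oog1 from 4.51, 5.73 and 4.62 RPM to 35.3, 31.9 and 37.0 RPM. For every gene the D20 libraries lay above all D17 libraries and were the highest of the 24 groups by mean.

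The genes differed in how much of the D20 level was reached early. At D13 Oog1 had 14.3% of its D20 mean, Oog4 8.29%, Oog2 6.73%, C87977 6.35% and Oog3 4.07%. At D17 Oog1 had 62.7%, C87977 61.0%, Oog3 51.7%, Oog4 49.6% and Oog2 47.5%. Oog1 was the earliest and Oog3 the latest by the D13 level, the same ends of the order as from P4 to P6 in the ovary. By the D17 level Oog2 was the latest. For Oog1 this order holds for the reads assigned to it and not surely for the gene. Per kilobase, D20 oocytes held 312 RPM of Oog3, 211 of C87977, 158 of Oog4, 54.8 of Oog2 and 19.3 of Oog1.

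**Figure D3:**
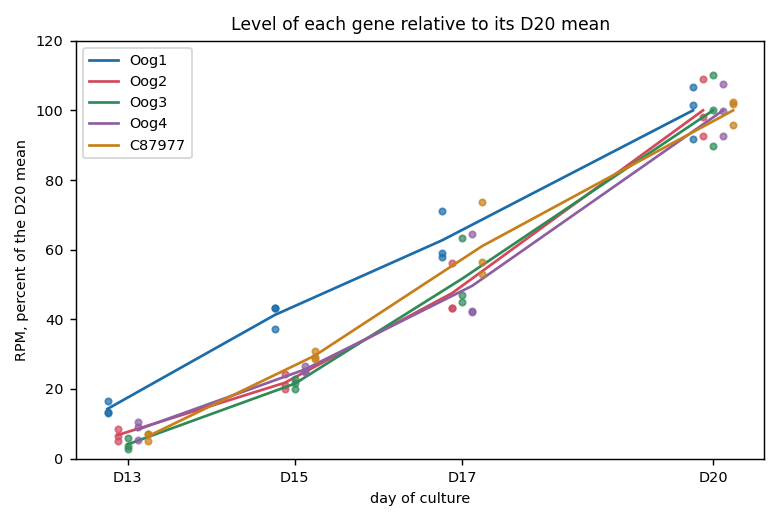
Level at D13, D15, D17 and D20 as percent of each gene's D20 mean, with points for 3 libraries, slightly shifted by gene, and lines through the means. The genes start between 4.07% and 14.3% at D13 and lie between 47.5% and 62.7% at D17.

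Against P6 large oocytes, the D20 mean was 3.36-fold for Oog1, 2.43-fold for Oog3, 2.08-fold for C87977, 2.04-fold for Oog4 and 1.65-fold for Oog2. After rescaling these ratios were 3.21, 2.33, 1.99, 1.96 and 1.58. Strain, culture and age differ together between these groups and cannot be told apart. The D20 groups also stood above the WT normoxia libraries of D21, by 1.78-fold for C87977, 2.14-fold for Oog2, 2.17-fold for Oog3, 2.66-fold for Oog1 and 2.68-fold for Oog4. For each gene all D20 libraries lay above all D21 libraries.

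In the order of the 24 group means, D20 and then, for every gene but Oog2, D17 came first, and P6 large came second for Oog2. Below D20, the groups D17, P6 large and the WT normoxia and unlabelled WT groups of D21 overlapped with their neighbours in most genes. For Oog1, Oog4 and C87977 the groups of large oocytes, of D13 and later and of D21 lay without overlap above all other groups. For Oog2 and Oog3 the small-oocyte libraries overlapped with the neighbouring groups above and below them.

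At D21 the 5 genes had lower levels in hypoxia than in normoxia in WT oocytes, and 2 of them passed the test. C87977 stood at 242 and 204 RPM in normoxia and at 68.5 and 89.2 RPM in hypoxia, a log2 change of -1.5 ± 0.325 (SE, adjusted p = 0.015). Oog2 stood at 58.9 and 39.5 RPM and at 22.8 and 24.6 RPM, a change of -0.998 ± 0.317 (adjusted p = 0.047). These 2 of 5 passed, where 6.55% of all 14392 genes were called lower (10% after rescaling, when Oog3 passed too). Oog3 stood at 323 and 213 RPM and at 100 and 131 RPM, a change of -1.19 ± 0.40 that did not pass (adjusted p = 0.055). Oog4 stood at 148 and 84.8 RPM and at 47.6 and 69.0 RPM (-0.96 ± 0.49, adjusted p = 0.18), and Oog1 at 15.1 and 11 RPM and at 4.33 and 4.76 RPM (-1.33 ± 0.55, adjusted p = 0.11). No gene's normoxia and hypoxia libraries overlapped, and the share of all genes without overlap is not given here.

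The change of C87977 was of similar size whichever library was left out, but its call was not kept in each case. Without the first hypoxia library it was -1.31 (adjusted p = 0.13) and without the second -1.68 (adjusted p = 0.067), and no gene passed. Without either normoxia library C87977 passed alone, with -1.37 (adjusted p = 0.022) without the first and -1.62 (adjusted p = 0.038) without the second. edgeR called 4 of the 5 and DESeq2 all 5. The WT normoxia pair differed in markers: the granulosa sum was 294 RPM in the first and 140 RPM in the second, and the 7 blood and immune markers summed to 2.89 and 77.6 RPM. In WT hypoxia the granulosa sum was 34.9 and 47.7 RPM, and Foxl2 averaged 6.44 RPM in normoxia and 0.786 RPM in hypoxia. The 5 germ cell and oocyte markers summed to 10244 and 16155 RPM in normoxia and to 6777 and 7287 RPM in hypoxia. The part of these differences in the result was not tested.

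In Tg oocytes every gene was also lower in hypoxia than in normoxia in both libraries, but none passed. The share of all genes separated in this way is again not given. C87977 stood at 95.9 and 155 RPM in normoxia and at 68.5 and 51.8 RPM in hypoxia (-1.02 ± 0.32, adjusted p = 0.19). Oog3 stood at 148 and 211 RPM and at 114 and 82.9 RPM (-0.85 ± 0.40, adjusted p = 0.37). The changes of Oog4, Oog2 and Oog1 were -0.75 ± 0.49, -0.68 ± 0.32 and -0.63 ± 0.55. With limma 0 of 5 passed and 1 had an unadjusted p under 0.05, edgeR called 0 and DESeq2 called 1 (C87977), while 0.869% of all genes were called lower. The granulosa sum moved here as well, from 153 and 208 RPM in normoxia to 35.1 and 47.9 RPM in hypoxia.

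No difference in the oxygen change between the genotypes passed the test. The difference was 0.48 ± 0.46 for C87977, with a 95% interval of -0.55 to 1.5, and 0.21 to 0.70 for the other genes. With limma 0% of all genes passed this test, 869 had an unadjusted p under 0.05, edgeR called 0 and DESeq2 called 2, none of them among the 5 genes. The intervals are wide enough to hold differences of 1 log2 unit for each gene.

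None of the 5 genes passed between Tg and WT oocytes. In normoxia Tg against WT was -0.86 ± 0.32 for C87977 (adjusted p = 0.16) and -0.48 to -0.88 for the other genes, beside 0.00695% of all genes called. In hypoxia it was -0.39 ± 0.32 for C87977 and -0.16 to -0.39 for the others, again with 0.00695% of all genes called. In the pair of groups with no oxygen label it was -0.72 ± 0.32 for C87977 (adjusted p = 0.17) and -0.18 to -0.70 for the others, with 6.85% of all genes called. limma gave 1, 0 and 1 of the 5 genes an unadjusted p under 0.05 in these 3 comparisons, edgeR called 0 in each, and DESeq2 called 1, 0 and 2. In the unlabelled WT pair Oog3 stood at 144 and 352 RPM and Oog1 at 3.30 and 18 RPM, so the libraries of this group were far apart, and the Tg libraries of Oog1 (5.34 and 9.06 RPM) lay between them. Without the second WT library of this pair the differences of Oog1, Oog3 and Oog4 turned to 0.89, 0.18 and 0.10, again without a call. The granulosa sum was 471 and 688 RPM in the unlabelled Tg pair and 233 and 282 RPM in the WT pair.

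**Figure D4:**
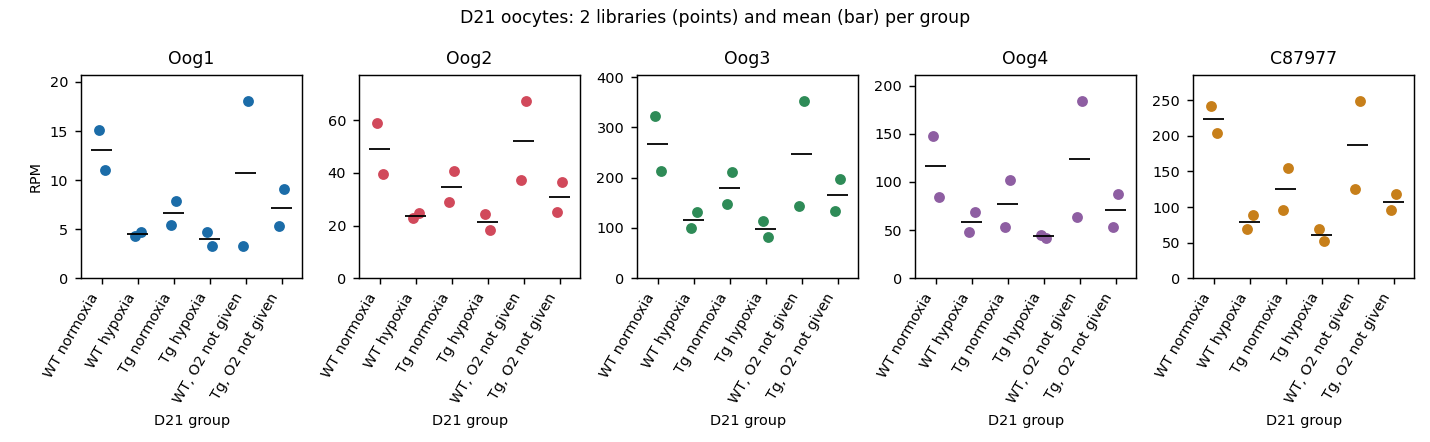
RPM of each gene in the 6 groups of D21, with points for the 2 libraries and bars for their mean, and vertical scales that differ between panels. Hypoxia libraries lie below normoxia libraries of the same genotype for all 5 genes, and the WT libraries with no oxygen label (O2 not given) are the most widely spread.

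Other PRAME-like genes were read from a list of 41 names, of which 35 were in the table and 14 entered the ovarian fit. Gm13023 was not among the 14, and its means were 0.406 RPM in P6 small and 219 RPM in P6 large oocytes. At P6, 9 of the 14 were higher and 2 lower in large than in small oocytes, beside 22.1% and 51.3% of all genes. Their median was 1.93, against -0.41 for all genes. At P4 8 were higher and 2 lower (median 1.72), beside 20.5% and 48.7% of all genes. Listed genes that reached 1 RPM only in large oocytes entered the fit through them, so these counts are a description. Gm10436, which shares sequence with Oog1, went from 0.221 ± 0.069 to 98.4 ± 11 RPM from P6 small to P6 large (SD, n = 3). C87499, C87414 and Gm13084 were higher in P6 large by 4.04 ± 0.20, 4.22 ± 0.40 and 3.70 ± 0.44 on the log2 scale. Gm13103 (1.90 ± 0.36), E330014E10Rik (2.33 ± 0.33) and AA792892 (1.72 ± 0.57) were higher as well.

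The family held other patterns too. Pramel1 was read in fetal germ cells, at 154 ± 25 RPM at E14.5, and was lower in large oocytes, with 14.1 ± 2.9 RPM in P6 small and 0.823 ± 0.15 RPM in P6 large (-3.03 ± 0.14). Pramef8, next to Oog4 on the chromosome, fell by 0.81 ± 0.13, from 47.5 to 26.8 RPM. Pramef12 was abundant in both, at 456 and 510 RPM, and Gm13125 stood at 56.7 and 45.5 RPM, and neither passed. These are RPM without rescaling, for which the median change of all genes was -0.41, against -0.0026 after rescaling. Values of Pramef8, Pramef12 and Gm13125 after rescaling are not given here. In WT oocytes of D21, 12 of the list were tested. In hypoxia Gm10436 and Gm13084 were lower (-1.42 ± 0.38 and -1.09 ± 0.24) and Pramel1 and Pramef8 higher (1.10 ± 0.26 and 0.73 ± 0.20). Over all genes 6.55% were called lower and 15.9% higher. The median of the list was -0.71, against 0.14 for all genes.

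**Figure D5:**
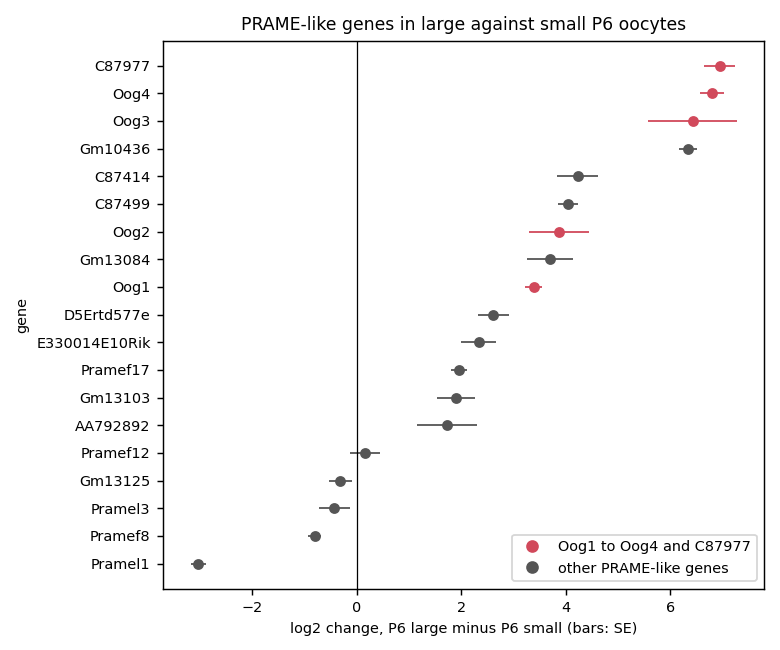
Log2 change of PRAME-like genes between large and small P6 oocytes, with bars for the standard error, for the 5 genes (red) and the 14 others that were tested (grey). Of the genes shown, C87977, Oog4 and Oog3 have the highest values, Gm10436 follows, and Pramel1 lies lowest at -3.03. Gm13023, with means of 0.406 RPM in P6 small and 219 RPM in P6 large oocytes, is not shown.

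Genes with the most similar pattern were sought among 10448 genes that reached 20 RPM in at least 1 group. The 5 genes and predicted genes (Gm numbers and names ending in Rik) were left out. The copies Gm13023, Gm13084, Gm10436 and Gm2042 were therefore not ranked. The measure was Pearson's r of mean log2(RPM + 1) over the 24 groups. These values are descriptions, since most groups share stages, depth and normalization. The closest to C87977 were Nlrp9c, an NLRP gene (r = 0.995), Pabpn1l, a poly(A)-binding protein (0.992), and Cpa1, a carboxypeptidase (0.992). Oog4 was closest to Nlrp9c (0.994), Sebox, a homeobox gene (0.993), and Cpa1 (0.993), and Oog3 to Pabpn1l (0.990), Nlrp9c (0.984) and Cpa1 (0.983). Oog1 was closest to Sebox (0.992), Pga5, a pepsinogen gene (0.988), and Fbxw19, an F-box gene (0.984). Oog2 was closest to the PRAME-like C87499 (0.986), AA619741 (0.986) and Cdk20, a kinase gene (0.982). Among the 5 genes r ran from 0.938 (Oog1 and Oog2) to 0.997 (Oog4 and C87977).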

How the data were processed

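The authors deposited RPM (reads scaled to 1e+06 in each library) for 24062 genes in 66 libraries. Per the labels' protocols, poly(A) RNA was made into directional libraries with 12 PCR cycles. Per the submitters' processing notes, R 3.4.4, featureCounts 1.5.1, Bowtie2 2.0.13 and TopHat2 were named, with the build mm10. The annotation, the strand setting and the treatment of reads with several matches are not given in the sources used here. Every value was a whole number of reads to within 0.02 of a read, so reads were recovered from the deposited RPM.

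Samples were grouped by their titles. Genes with a mean of at least 1 RPM in at least 1 group entered limma-trend on log2(RPM + 1), run with limma 3.58.1 under R 4.3.3. The 27 ovarian libraries were fitted with 18 residual degrees of freedom and 15401 genes, and the 12 libraries of D21 with 6 and 14392 genes. Alternatives were pseudocounts of 0.1 and 5, no filter, rescaling by size factors, edgeR 4.0.16 (quasi-likelihood) and DESeq2 1.42.0 on recovered reads, a replicate block, and leaving out each library. Scripts were tested on simulated data. The D5 to D20 course had no test. The sources do not say that replicates came from separate animals or cultures, so p-values measure the spread between these libraries. The members and gene lists were chosen with earlier results of these data known.

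Named besides the 5 genes are the 3 genes with the highest r for each, predicted genes left out, listed PRAME-like genes with a group mean of at least 20 RPM, and, chosen after their values were seen, the genes that share sequence or the pair of words. Upstream sequences are from RefSeq and gene models from GENCODE, both of GRCm38. Floors of 3 reads cover counting error only, since reads copied by PCR carry no molecular identifiers and need not stand for separate molecules. Between replicate libraries chi-square per gene was 3.42 to 229, so no pair looked like a single library deposited again.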

Additional observations from a re-analysis of the deposited data

Results flagged for a closer look

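The difference between large and small oocytes was greater at P6 than at P4 for all 5 genes, by a test of that difference itself in limma-trend with Benjamini-Hochberg adjustment. It was greater by 0.75 ± 0.23 (SE) on the log2 scale for Oog1 (adjusted p = 0.043), by 3.2 ± 0.80 for Oog2 (adjusted p = 0.015), by 4.06 ± 1.20 for Oog3 (adjusted p = 0.037), by 2.29 ± 0.32 for Oog4 (adjusted p = 0.00031) and by 2.39 ± 0.43 for C87977 (adjusted p = 0.0016). Of all genes 2.64% were called in this direction (5.19% after rescaling). Oog1, Oog4 and C87977 entered the fit only through large oocytes, so their values are a description. Of the 12 fits that left out a library, most lost the calls of Oog1 and Oog3, and the call of Oog2 was lost without the third P4 large library (2.43, adjusted p = 0.057). edgeR called 1 of the 5, and DESeq2 and limma with a pseudocount of 0.1 called 0.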

How the results depend on the processing

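No called change reversed direction in any setting tried, and the 5 genes were called higher in P6 large than in P6 small oocytes in all of them. Of the recomputed values of the 5 genes, 929 kept their direction and their side of the threshold, 64 lost a call, 14 gained one, and 23 changed sign without a call in either fit. The cause of the changes given here was not tested.

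Of the 5 genes called from P4 large to P6 large, 3 passed with a pseudocount of 0.1 and 1 with DESeq2. Of the 5 called for the change of the size difference between ages, 0 passed with a pseudocount of 0.1, 1 with edgeR and 0 with DESeq2. DESeq2 called 1 of them at each of the steps to E18.5, P1 and P3, and edgeR none. Of the 2 called in WT hypoxia, 1 passed with a pseudocount of 5, 1 without the filter, 4 genes passed with edgeR and 5 with DESeq2. DESeq2 called 1 gene in Tg hypoxia, 1 in Tg against WT in normoxia and 2 in the pair without an oxygen label.

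Over all genes, P6 against P4 small oocytes gave 20 calls, and 4, 31, 4 and 88 with pseudocounts of 0.1 and 5, edgeR and DESeq2. P4 small against P3 gave 0, and 1 without the filter and 5 with DESeq2. Tg hypoxia against normoxia gave 147, and 9 with a pseudocount of 5, 0 without the filter, 365 with edgeR and 1044 with DESeq2. Tg against WT in normoxia gave 1, and 2 after rescaling, 2 with edgeR and 1607 with DESeq2, and in hypoxia 1, and 2 with DESeq2. The pair without an oxygen label gave 986, and 292 with a pseudocount of 0.1, 479 without the filter, 1 with edgeR and 1573 with DESeq2. The change of the oxygen difference between genotypes gave 0, and 2 with DESeq2. Rescaling moved the split of higher and lower calls from 3175 and 7534 to 5146 and 4778 (P4 large against P3), from 3156 and 7507 to 5112 and 4783 (P4 large against small), from 3396 and 7904 to 5576 and 5276 (P6 large against small), from 708 and 2155 to 1621 and 1113 (P6 against P4 large), from 406 and 906 to 800 and 485 (change between ages), from 2295 and 942 to 1606 and 1445 (WT hypoxia) and from 899 and 87 to 679 and 208 (pair without an oxygen label).

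Leaving out each library in turn gave 845 to 2441 genes from P1 to P3, 0 to 1 from P3 to P4 small, 0 to 26 from P4 small to P6 small, 1459 to 3137 from P4 large to P6 large, and 560 to 1864 for the change between ages, with 2 to 5 of the 5 genes. It gave 16 to 6011 genes and 0 to 1 of the 5 in WT hypoxia, 0 to 0 in Tg hypoxia, 1 to 5202 for Tg against WT in normoxia, 2 to 3171 in the pair without an oxygen label and 0 to 2338 for the change between genotypes. The highest counts of 5202 and 2338 were those without the first WT normoxia library. Values that changed sign, none of them called, had these ranges when a library was left out. From E18.5 to P1 C87977 ran from -0.099 to 0.020, and from P1 to P3 Oog3 from -0.029 to 1.23. From P3 to P4 small Oog1 ran from -0.0046 to 0.33, Oog3 from -0.24 to 1.49, Oog4 from -0.23 to 0.13 and C87977 from -0.082 to 0.34. From P4 to P6 small Oog3 ran from -1.72 to 0.42 (0.34 with edgeR and 0.33 with DESeq2), Oog4 from -0.39 to 0.022 and C87977 from -0.16 to 0.53. For Tg against WT, Oog1 ran from -0.38 to 0.034 and Oog2 from -0.37 to 0.043 in hypoxia, and in the pair without an oxygen label Oog1 from -1.25 to 0.89, Oog3 from -1.11 to 0.18 and Oog4 from -1.41 to 0.10. For the change between genotypes Oog4 ran from -0.25 to 0.66. A group of D21 left with 1 library was assumed to vary like the others.

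Same-numbered libraries did not deviate together (r = -0.267 to 0.222 over the comparisons), so the numbers were not used to pair libraries. With the replicate number as a block, 1 of the 5 genes passed in WT hypoxia, 4 for the change between ages, and 94 of all genes in Tg hypoxia and 1 in the pair without an oxygen label were called. With the numbers crossed, an alternative chosen after seeing the data, 2479 genes and 1 of the 5 were called in WT hypoxia, 131 and 0 in Tg hypoxia, and 1 and 0 for Tg against WT in hypoxia. At D21, 2 libraries per group and the lower depth of the libraries without an oxygen label limit what can be detected.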
